A study of Drosophila melanogaster with 17 samples.

Results

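The miR-9c, miR-306, miR-79 and miR-9b cluster of Drosophila melanogaster was followed through an s4U labelling time course in S2 cells, before and after oxidation of the RNA. Its members were the arms whose names start with mir-9c-, mir-306-, mir-79- or mir-9b-, which gave 8 arms of 4 hairpins among 324 arm names in the whole series. All 8 arms were listed in the read and length tables of both groups and in the unoxidised mismatch table. The oxidised mismatch table listed 5 of the 8, which were mir-9c-5p, mir-306-5p, mir-306-3p, mir-79-3p and mir-9b-5p.

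The libraries were small RNA of wild type Schneider 2 (S2) cells, a cultured line of embryonic origin. Cells were given 500 µM 4-thiouridine (s4U), a uridine analog that enters new RNA, for 0.25, 0.5, 1, 3, 6, 12 or 24 h, and the 0 h cells had none. RNA was alkylated with iodoacetamide (IAA), so that labelled U is read as C (a T>C mismatch). The RNA was then split, and 1 portion was oxidised with NaIO4. This gave 8 unoxidised and 8 oxidised libraries, 1 per time and group, plus 1 unoxidised library with neither s4U nor IAA. All 17 libraries shared the genotype and the cell line. The labels name no separate cultures beyond the times, so p-values here measure the spread between these libraries, which may be technical.

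A miRNA hairpin is cut by Drosha and Dicer-1 into a duplex of a 5p and a 3p arm. One arm, the guide, is usually kept by Argonaute1 and the other, the passenger, is discarded or loaded into Argonaute2. In flies small RNAs in Argonaute2 receive a 2′-O-methyl group at the 3′ end from Hen1, and this end resists NaIO4, while an unmethylated end is oxidised and is not ligated. The miR-9 family is known in flies for roles in sensory organ and wing development, and miR-9c, miR-306, miR-79 and miR-9b lie in grp, which encodes the checkpoint kinase Chk1.

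On the BDGP6 (dm6) assembly, grp (FBgn0261278) covers chr2L:16680054-16699926 on the plus strand. The 4 hairpins lay in 2 neighbouring introns, both present in 5 of 5 annotated grp transcripts. The mir-9c hairpin (FBgn0262430, chr2L:16697924-16698015) was alone in an intron of 495 nt (chr2L:16697644-16698138). A 210 nt exon (chr2L:16698139-16698348) separated it from mir-306 (FBgn0262386, chr2L:16698404-16698488), mir-79 (FBgn0262452, chr2L:16698554-16698650) and mir-9b (FBgn0262413, chr2L:16698744-16698834), which shared the next intron of 613 nt (chr2L:16698349-16698961). Gaps of 65 and 93 nt separated the 3 hairpins of that intron.

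**Figure D1:**
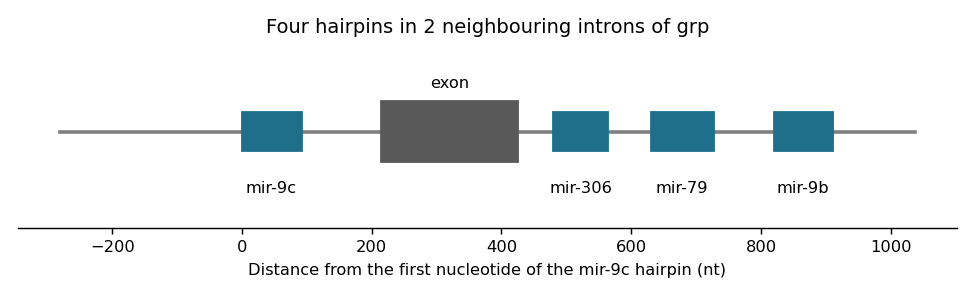
Map of the 4 hairpins (blue boxes) along the grp introns (grey line), drawn to scale in nt from the first nucleotide of mir-9c; the dark box is the grp exon. One hairpin lies before the exon of 210 nt and 3 lie after it.

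The mature arms are shown because they can be grouped by their seeds (nucleotides 2 to 8, in capitals), the stretch that pairs with targets. They run 5′ to 3′ in DNA letters, read from the deposited hairpin sequences between the annotated arm ends, all on chr2L plus strand.
mir-9c-5p: tCTTTGGTattctagctgtaga
mir-9b-5p: tCTTTGGTgattttagctgtatg
mir-79-5p: gCTTTGGCgctttagctgtatga
mir-9c-3p: tAAAGCTTttataccaaagctc
mir-79-3p: tAAAGCTAgattaccaaagcat
mir-9b-3p: tAGAGCTTtattaccaaaaacc
mir-306-5p: tCAGGTACttagtgactctcaa
mir-306-3p: gGGGGTCActctgtgcctgtgc

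The 5p arms of mir-9c and mir-9b had the same seed, and that of mir-79 differed from it at 1 of 7 seed nucleotides, with 6 identical. The 3p arms of mir-9c and mir-79 also had 6 identical seed nucleotides. The 3p arm of mir-9b had 6 seed nucleotides identical to that of mir-9c. Neither arm of mir-306 shared a seed with another cluster arm, and mir-306-5p shared its seed with mir-275-3p. The arm with more unoxidised reads is called the guide here and the other the passenger. The guides were mir-9c-5p (chr2L:16697936-16697957), mir-306-5p (chr2L:16698418-16698439), mir-79-3p (chr2L:16698613-16698634) and mir-9b-5p (chr2L:16698758-16698780).

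Unoxidised libraries held 19041816 to 24665859 small RNA reads and oxidised ones 19074278 to 42511487. The miRNA reads among them were 10321559 to 13199979 and 1386443 to 5610093. All 9 of 9 miRNAs listed as S2 markers were present at 3717 to 147021 RPM (reads scaled to a library's small RNA total) in the unoxidised mean, and 10 of 10 markers of other cells and stages were at 0.145 to 3.47 RPM. The oxidised 0 h library stood apart. Its median correlation with the other oxidised libraries over 79 arms (log2 scale) was 0.845, where the other 7 had 0.973 to 0.987 and the unoxidised libraries 0.991 to 0.997. Values without it are given beside the abundance, kept-share and strand-ratio results, and it is the background of the oxidised T>C tests.

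Before oxidation the cluster arms summed to 9482 ± 644 RPM (SD, n = 8), and their levels spanned from 3706 RPM for mir-306-5p to 47.3 RPM for mir-79-5p. The guide of mir-306 was the highest, at 3251 to 4228 RPM (median 3672), and ranked 24 of 305 listed arms. mir-9b-5p followed at 2368 to 2773 RPM (median 2487), below mir-306-5p in all 8 libraries with ranges that did not overlap. mir-79-3p at 1027 to 1664 RPM (median 1386) was above mir-9c-5p at 1057 to 1398 RPM (median 1215) in 7 of 8 libraries, and their ranges overlapped. The 4 guides of 1 primary transcript thus fell into 3 levels.

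The passenger arms were lower in every hairpin. Means were 237 ± 30.5 RPM for mir-9c-3p, 224 ± 27.3 for mir-306-3p, 138 ± 12.9 for mir-9b-3p and 47.3 ± 4.68 for mir-79-5p (SD, n = 8). The first 2 of these neighbours overlapped in range, and each of the others was lower than the one before it in 8 of 8 libraries. The unoxidised libraries varied little, with a coefficient of variation of 6.36% for mir-9b-5p and 13.1% for mir-79-3p.

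Oxidation reordered the cluster. Levels of 7 of the 8 arms were lower in the oxidised library at all 8 times, with groups that did not overlap (49.5% of 186 arms in both groups' tables were lower without overlap). The other arm, mir-306-3p, the passenger of mir-306, was higher at all 8 times, with groups that overlapped (7.53% of the 186 arms were higher without overlap). The summed cluster level was 1430 ± 192 RPM (SD, n = 8) after oxidation. All miRNA reads together also fell, from 51.3 to 56.4% of small RNA reads in the unoxidised libraries to 7.27 to 13.2% in the oxidised ones. The lower sum is therefore not particular to the cluster. RPM gives an arm's share of a library's small RNA reads and not a number of molecules. The cause of the lower levels was not tested.

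mir-306-5p was at 5.6 to 15.3 RPM (median 8.17) after oxidation, or 125 to 611 reads per library. Its oxidised level was 0.172 to 0.452% of the unoxidised level at the same time (median 0.224%), and the mean was 404 times lower. mir-306-3p was at 255 to 745 RPM (median 393) after oxidation against 188 to 265 RPM (median 218) before. At each time it was at 124 to 307% of its unoxidised level, with group ranges that overlapped, and the median was 178% without the 0 h library. The abundant strand of mir-306 was thus nearly lost from the oxidised libraries while its scarce strand was read more often.

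mir-9c-5p kept the largest share among the guides. It was at 573 to 1030 RPM (median 831) after oxidation, 49.2 to 85.1% of the same time's unoxidised level (median 67%, and 60.4% without the 0 h library). Its partner mir-9c-3p was at 0.118 to 4.09 RPM (median 1.7), with 5 to 163 reads per library, and kept 0.0486 to 1.49% (median 0.853%). The lowest of these was the 0 h library, and without it mir-9c-3p kept 0.216 to 1.49%.

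mir-79-3p was at 37.0 to 175 RPM (median 136) after oxidation and kept 2.73 to 12.1% (median 9.82%). The 0 h library was again the lowest, and the other 7 kept 8.49 to 12.1%. mir-79-5p, its passenger, was at 0.259 to 1.34 RPM (median 1.1) and kept a median of 2.27%. The lowest was the 0 h library, and the other 7 had 0.734 to 1.34 RPM and a median of 2.47% kept. It was read 11 to 49 times per oxidised library.

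mir-9b-5p has the same seed as mir-9c-5p, yet it was at 22.7 to 75.7 RPM (median 49.7) after oxidation and kept 0.887 to 3.14% (median 1.94%). Without the 0 h library it was at 28.8 to 75.7 RPM and kept 1.22 to 3.14%. mir-9b-3p was at 0.306 to 2.99 RPM (median 2.02) and kept a median of 1.51%. Without the 0 h library, its lowest, it was at 0.979 to 2.99 RPM and kept a median of 1.54%. The order of levels after oxidation by mean ran from mir-9c-5p through mir-306-3p, mir-79-3p, mir-9b-5p and mir-306-5p to the other 3 passengers, whose ranges overlapped. mir-9c-5p and mir-306-3p overlapped, and so did mir-79-3p and mir-9b-5p, though mir-79-3p was higher in 8 of 8 libraries.

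**Figure D2:**
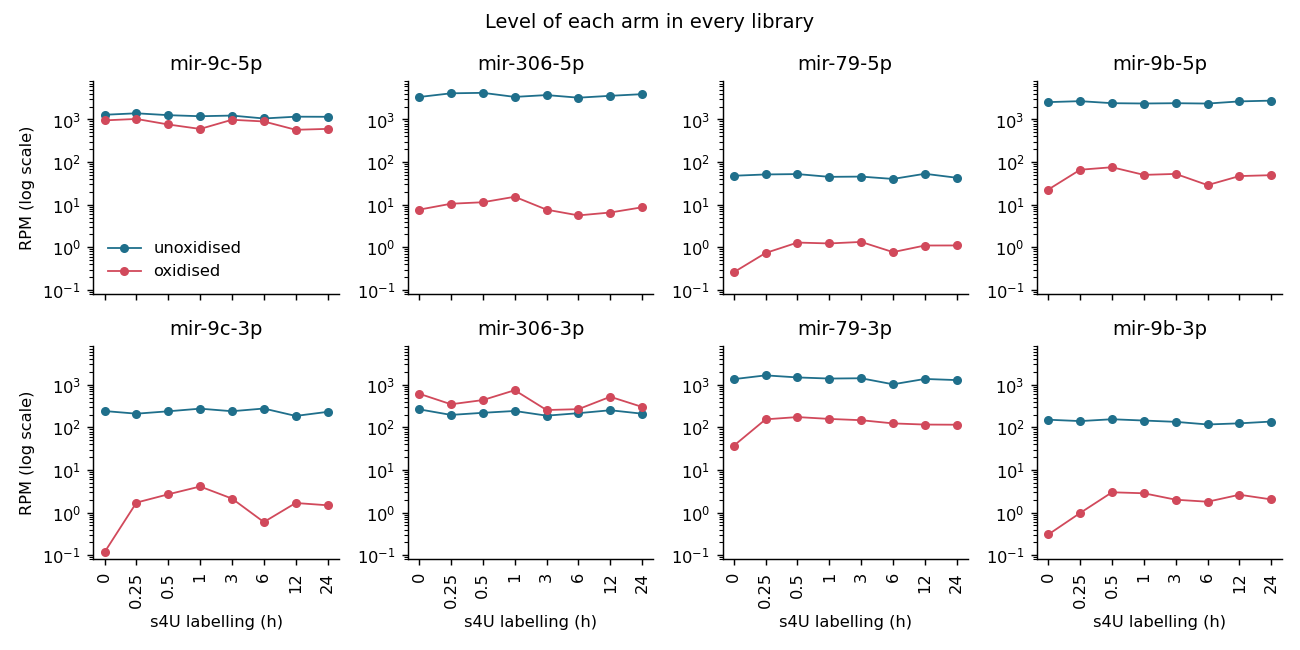
RPM (log scale) of the 8 arms against s4U labelling time in unoxidised (blue) and oxidised (red) libraries, 1 point per library. mir-306-3p is the arm with oxidised points above the unoxidised ones at all 8 times; mir-9c-5p has oxidised RPM below the unoxidised at each time, though relative to other miRNA arms it is higher.

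The levels of all arms were compared between groups with edgeR's quasi-likelihood test on counts, with time as a block, TMM scaling and Benjamini-Hochberg adjustment over the 79 arms that both mismatch tables list with a common start. Of these 44.3% were called higher and 43% lower (87.3% in either direction), and the median change was -0.14 on the log2 scale. The 5 cluster arms in the fit all passed, 2 higher and 3 lower. mir-306-5p had a log2 change of -6.50 (SE 0.203, adjusted p = 8.7e-10), the lowest of the 79 arms. mir-306-3p had 3.09 (SE 0.202, adjusted p = 1.3e-07), the 5th from the top. mir-9b-5p had -3.56 (SE 0.16) and mir-79-3p -1.30 (SE 0.18), with adjusted p of 1.2e-08 and 4.6e-05. Without the 0 h libraries all 5 arms passed, with mir-306-5p at -6.70, mir-306-3p at 2.83, mir-9b-5p at -3.62, mir-79-3p at -1.28 and mir-9c-5p at 1.34.

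mir-9c-5p changed sign with the scaling. Relative to the other arms (TMM) its log2 change was 1.58 (SE 0.159, adjusted p = 3.7e-06), and scaled to all small RNA reads it was -0.64 (SE 0.148, adjusted p = 0.00165). That scaling moved the median of the 79 arms to -2.34, so that 10.1% of arms were called higher and 68.4% lower, and mir-9c-5p was above the median in both. mir-306-3p was higher under both scalings, with 0.87 (SE 0.168) on the small RNA scale.

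The 3 passengers outside the oxidised mismatch table were tested on whole reads recovered from the read tables, over 171 arms of which 46.8% were called lower and 40.9% higher by edgeR (87.7% in either direction). mir-9c-3p had a log2 change of -6.00 (SE 0.474), mir-9b-3p -4.98 (SE 0.338) and mir-79-5p -4.33 (SE 0.241), with edgeR adjusted p of 2.5e-07, 8.9e-08 and 1.7e-08. All 8 arms passed there, and leaving out the 0 h libraries kept all 8, with mir-9c-3p at -5.68.

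The share kept was also compared between the cluster's arms, since a ratio within a library does not depend on the scaling. With an exact two-sided sign-flip permutation test over the 8 times, whose smallest p is 0.00781, 25 of 28 pairs passed after Benjamini-Hochberg adjustment, and 26 without the 0 h libraries. Pairs of arms outside the cluster were not tested, so this count has no background and does not show that the cluster is unusual. Between the guides that share a seed, mir-9c-5p exceeded mir-9b-5p in log2 share kept by 5.14 (SE 0.262, n = 8, 8 of 8 times higher, exact permutation p = 0.00781, adjusted p = 0.00994). mir-79-3p exceeded mir-9b-5p, its neighbour in the intron, by 2.25 (SE 0.179, n = 8, 8 of 8 times higher, exact permutation p = 0.00781, adjusted p = 0.00994). All 6 pairs of guides passed. The 3 pairs that did not were mir-9c-3p with mir-306-5p, mir-9b-5p with mir-9b-3p, and mir-79-5p with mir-9b-5p.

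The shares of each hairpin's reads from its 2 arms show the strand that survived. In mir-306 the 5p arm gave 92.7 to 95.5% of reads (median 94.4%) before oxidation and 1.22 to 2.93% (median 2.29%) after. In mir-9c it gave 79.2 to 87.0% (median 83.9%) before and 99.3 to 100% (median 99.8%) after. In both hairpins the groups did not overlap. mir-306 exchanged its major strand, and mir-9c came to be read almost entirely from the strand that was already major.

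In mir-79 the 5p arm, its passenger, gave 2.99 to 3.77% of reads (median 3.31%) before oxidation and 0.473 to 0.947% (median 0.753%) after. In mir-9b the 5p arm gave 94.0 to 95.5% (median 94.9%) before and 94.1 to 98.7% (median 96.1%) after. The groups did not overlap in mir-79 and overlapped in mir-9b.

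**Figure D3:**
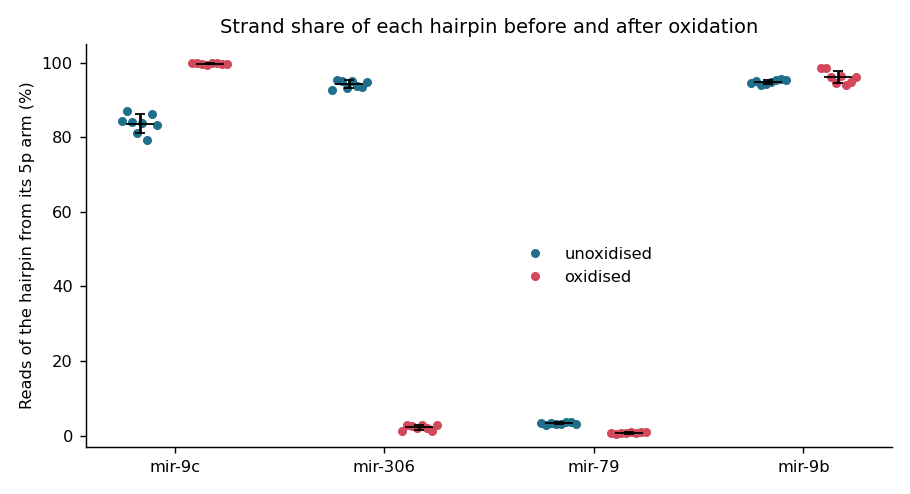
Percentage of each hairpin's reads that came from the 5p arm, 1 point per library (8 unoxidised in blue, 8 oxidised in red), with the mean and SD in black. mir-306 falls from a mean of 94.2% to 2.21%, mir-9c rises from 83.6% to 99.7%, and mir-9b has 94.8% and 96.2%.

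The log2 ratio of 5p to 3p reads was tested with limma on the paired differences of 36 hairpins, of which 63.9% moved towards the 5p arm and 25% towards the 3p arm (88.9% in either direction, median 2.41). mir-306 had the lowest value of the 36, with a change of -9.59 (SE 0.155, adjusted p = 1.0e-11). mir-79 moved by -2.17 (SE 0.16, adjusted p = 6.2e-07), and mir-9c by 6.85 (SE 0.563, adjusted p = 1.4e-06), the 3rd from the top. mir-9b had 0.60 (SE 0.304) and did not pass (adjusted p = 0.0828). Without the 0 h libraries mir-9c moved by 6.34 and mir-9b had 0.39, and the calls were as before.

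In the minimum free energy structures given by RNAfold, nucleotides 9 and 10 were both paired in mir-9c-5p, mir-306-3p, mir-79-3p and mir-9b-5p, and not both paired in their partner arms. These are the arms towards which the ratio had moved, with a change in mir-9b that did not pass. Of all 36 hairpins 24 moved towards the 5p arm. Outside the cluster, 6 of 7 hairpins with both nucleotides paired in the 5p arm alone moved towards 5p, and so did 10 of 13 with them paired in both arms and 1 of 3 with them paired in neither. Of the 9 other hairpins with them paired in the 3p arm alone, 4 moved towards 3p and 5 towards 5p (median log2 change 1.07). The pairing is thus a description of the 4 cluster hairpins and was not tested.

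T>C mismatches at U positions followed the new RNA in each arm. The level is given as the percentage of T>C among reads over all U positions in the mismatch table, with 95% exact Clopper-Pearson intervals that cover counting error only. These positions run past the annotated 3′ end, where few reads reach and mismatches are frequent without s4U. At nucleotide 23, 1 past the end of mir-306-5p, 135 of 4631 reads (2.92%) had T>C in the library without s4U and IAA. Values over the annotated arm alone are therefore given beside the low values. At 0 h, without s4U, the unoxidised arms were at 0.0277% (mir-9c-3p) to 0.0821% (mir-306-3p), and the library without s4U and IAA gave 0.00934 to 0.0593%. These are the backgrounds for the values that follow. Within the annotated arms the 0 h values were 0.0249% (mir-9c-3p) to 0.0681% (mir-306-3p), and that of mir-306-5p was 0.0261% in place of 0.0489%.

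Of the 4 passengers 3 were labelled early. mir-79-5p reached 1.69% (1.45 to 1.96%) after 0.25 h and 2.61% (2.31 to 2.93%) after 0.5 h. It was at 3.11% after 1 h, at 3.18% (2.84 to 3.54%) after 3 h and at 2.31% (2.02 to 2.64%) after 24 h. mir-306-3p reached 1.10% (0.987 to 1.23%) after 0.5 h, 1.32% after 1 h and 1.84% after 24 h. mir-9b-3p reached 0.749% (0.636 to 0.876%) after 0.5 h, 1.05% after 1 h and 2.18% after 24 h. After 1 h, background subtracted, mir-306-3p and mir-9b-3p already had 70.4% and 47.4% of their 24 h value, and mir-79-5p had 135%. Within the annotated arms these were 69.6%, 47.4% and 137%.

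Guides were labelled gradually. mir-306-5p was at 0.115% (0.107 to 0.124%) after 0.5 h and 1.71% (1.68 to 1.74%) after 24 h, and mir-79-3p at 0.115% and 1.41%. mir-9b-5p was at 0.153% and 2.20%, and mir-9c-5p at 0.276% (0.257 to 0.296%) and 2.81% (2.75 to 2.87%). After 1 h these 4 had 7.46 to 14.3% of their 24 h value. Within the annotated arms the 0.5 h values were 0.0849% for mir-306-5p, 0.0823% for mir-79-3p, 0.15% for mir-9b-5p and 0.27% for mir-9c-5p, and the 1 h shares were 6.19 to 14.1%. At 24 h positions past the end gave 137 of the T>C in mir-306-5p, against 11416 within it. The 6 h library had the most T>C past the end, with 463 in mir-306-5p and 180 in mir-79-3p, whose 6 h value was 0.643% with them and 0.46% without. mir-9c-5p ranked 8 of 71 arms of at least 100 RPM at 24 h, and mir-79-3p 59 of 71 (9 and 57 with U positions to nucleotide 18 only).

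mir-9c-3p is the scarcer arm of its hairpin, and its labelling course resembled those of the guides. It was at 0.131% (0.096 to 0.174%) after 0.5 h, 0.139% after 1 h and 1.54% (1.42 to 1.67%) after 24 h. After 1 h it had 7.33% of its 24 h value.

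**Figure D4:**
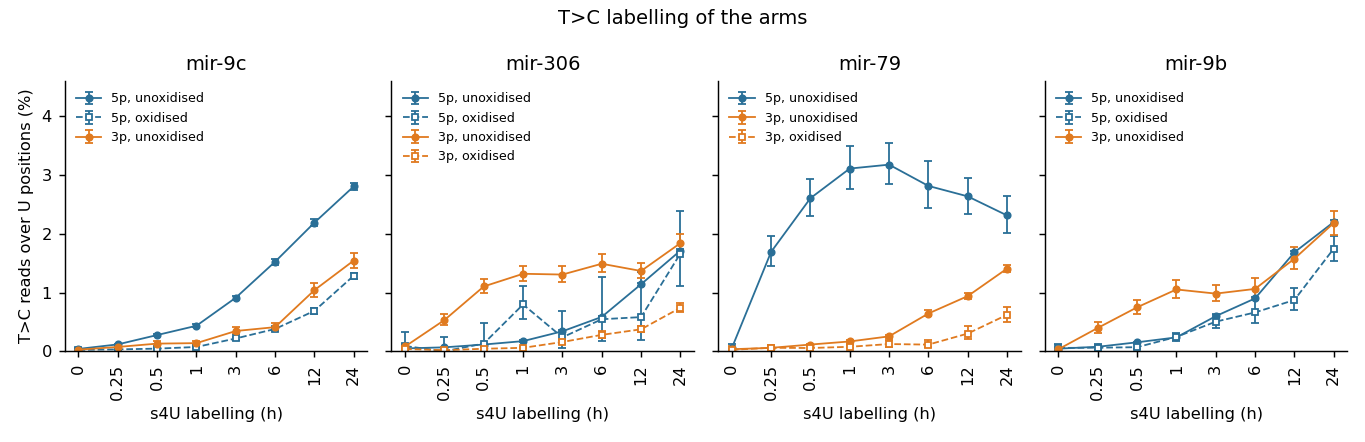
Percentage of T>C reads over U positions against labelling time for the 5p (blue) and 3p (orange) arms of each hairpin, unoxidised (filled, solid) and oxidised (open, dashed), with 95% exact intervals. Among unoxidised passengers, mir-79-5p and mir-306-3p rise mainly within 1 h, and mir-9b-3p rises both within 1 h and after 3 h. The guides and mir-9c-3p rise mainly after 3 h.

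Each labelled library was set against the 0 h library of its group with a one-sided Fisher's exact test, Benjamini-Hochberg adjusted over all arms and times. This compares 2 libraries and covers counting error only. In the unoxidised group the 7 cluster arms of at least 100 RPM passed at all 7 times, already at 0.25 h, where 91.5% of 71 arms passed (97.2% at 0.5 h, 98.6% at 1 h, 100% from 3 h and 98.2% over all times). mir-79-5p, below that level, passed at all 7 times when the minimum was 10 RPM.

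In the oxidised group 0 of 5 cluster arms passed at 0.25 h (16.7% of 60 arms did), 1 of 5 at 0.5 h (37.7% of 61), 4 of 5 at 1 h (73.8% of 61), 4 of 5 at 3 h (83.6% of 61), 4 of 4 at 6 h (86.4% of 59) and 12 h (93.1% of 58), and 5 of 5 at 24 h (100% of 60), against 70% of all arms and times. Over all times 22 of 33 cluster tests passed, both with the oxidised 0 h library, which stood apart, and with the unoxidised 0 h library as the background. The arm that passed at 0.5 h was mir-9c-5p, at 0.0452% (0.035 to 0.0574%) against 0.0244% at 0 h. The arm that had not passed at 1 h was mir-79-3p, and at 3 h it was mir-306-5p. Oxidised mir-306-5p had as few as 859 reads over U positions and was not tested at 6 and 12 h.

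The 0 h-subtracted courses of the arms were compared in pairs with an exact two-sided sign-flip permutation test over the 7 labelled times, whose smallest p is 0.0156. The times form 1 cumulative course, and the size of a difference changed along it. With 0 h subtracted, mir-306-3p and mir-306-5p were at 1.24% and 0.124% after 1 h, and at 1.76% and 1.66% after 24 h. For mir-9c-5p and mir-79-3p the values were 0.394% and 0.132% after 1 h, and 2.77% and 1.37% after 24 h. Of 28 unoxidised pairs 18 passed (adjusted over 38 pairs of both groups). Here too no pairs outside the cluster were tested, in either group, so the counts of pairs have no background. With any 1 time left out the smallest possible p is 0.03125. The smallest adjusted p found was then 0.0516, and 0 pairs passed. mir-9c-5p exceeded each other guide, with mean differences of 0.35 percentage points over mir-9b-5p (SD 0.237), 0.60 over mir-306-5p (SD 0.441) and 0.66 over mir-79-3p (SD 0.533), each higher at 7 of 7 times (n = 7, exact permutation p = 0.0156, adjusted p = 0.0297).

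mir-9b-5p exceeded mir-306-5p by 0.25 points (SD 0.217) and mir-79-3p by 0.31 points (SD 0.327), again at 7 of 7 times with adjusted p = 0.0297 by the same exact permutation test. mir-306-5p and mir-79-3p differed by 0.06 points (SD 0.13), which did not pass (n = 7, exact permutation p = 0.359). Within the annotated arms mir-306-5p was higher at 7 of 7 times, by 0.09 points (SD 0.116), and passed (n = 7, exact permutation p = 0.0156, adjusted p = 0.0283), so that 19 of 28 pairs passed and the other calls were as before. Within hairpins the passenger was labelled above the guide at 7 of 7 times in mir-306 (by 0.66 points, SD 0.409) and mir-79 (by 2.09 points, SD 0.747), and both passed. In mir-9c the direction was opposite, since the guide exceeded mir-9c-3p by 0.64 points (SD 0.515) at 7 of 7 times. In mir-9b the mean difference was 0.32 points in favour of the passenger (SD 0.328) and did not pass (n = 7, exact permutation p = 0.0625, adjusted p = 0.095).

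Outside the cluster, the arms with the nearest unoxidised courses were found among 64 arms by the root mean square difference over 7 times. For mir-306-5p they were bantam-3p (0.0413 percentage points) and mir-304-5p (0.0493), and for mir-79-3p mir-2a-2-5p (0.0487) and mir-968-5p (0.0502). For mir-9b-5p they were mir-283-5p (0.0846) and mir-282-5p (0.0883), and for mir-9c-5p mir-999-3p (0.107) and mir-190-5p (0.164). The nearest to mir-9c-3p were mir-988-3p (0.0625) and mir-1006-3p (0.0663). The 3 early arms had more distant neighbours, mir-13b-2-5p (0.139) and mir-305-3p (0.279) for mir-306-3p, mir-282-3p (0.175) and mir-184-5p (0.183) for mir-9b-3p, and mir-275-5p (0.456) and mir-980-5p (0.542) for mir-79-5p. With U positions to nucleotide 18 only, 7 of these 16 neighbours stayed among the nearest pair, and those of mir-9b-5p became mir-996-3p and mir-276a-3p.

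After oxidation the 24 h T>C level was lower in mir-306-3p and in 3 of the 4 guides, and the early rise of mir-306-3p was not seen. mir-306-3p was at 0.0433% (0.0271 to 0.0655%) after 0.5 h, against 1.10% before oxidation, and at 0.741% (0.669 to 0.818%) after 24 h, against 1.84%. Its oxidised course had 2.88% of the 24 h value after 1 h, where the unoxidised had 70.4%. The early labelled reads of this passenger were thus present in the unoxidised and nearly absent in the oxidised libraries.

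mir-9c-5p was at 1.29% (1.23 to 1.34%) after 24 h in the oxidised and 2.81% in the unoxidised library. mir-79-3p was at 0.621% (0.505 to 0.756%) against 1.41%. mir-9b-5p was at 1.75% (1.54 to 1.97%) against 2.20%. For these 3 guides the oxidised 24 h value was below the unoxidised one by more than the counting intervals.

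mir-306-5p was at 1.66% (1.12 to 2.38%) against 1.71%, from 29 T>C mismatches summed over U positions, a difference not detectable at this depth. Its 1 h value of 0.797% (0.553 to 1.11%) was above both the 3 h value of 0.238% (0.049 to 0.693%) and the unoxidised 1 h value of 0.173%. It rests on 34 T>C mismatches. In that oxidised 1 h library, T>C reads averaged 21.5 nt against 20.6 nt for all reads in mir-306-5p, and 22.1 against 20.3 nt in mir-9b-5p. The means were 21.5 against 21.4 nt in mir-306-3p and 21.3 against 21.5 nt in mir-79-3p. Of the cluster arms, mir-306-5p, mir-306-3p and mir-9c-3p had their highest oxidised RPM there, and the others did not. The part of this library in the 1 h values was not tested.

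limma on the paired differences over 7 times called 86.2% of 58 arms lower and 0% higher after oxidation, with a median of -0.54 percentage points. The 7 differences belong to 1 cumulative course, so their SE and p also take in change over time. In mir-9c-5p the unoxidised and oxidised values were 0.117% and 0.0322% at 0.25 h, and 2.81% and 1.29% at 24 h. mir-306-3p had -0.997 points (SE 0.096, adjusted p = 2.2e-05), mir-9c-5p -0.78 (SE 0.196, adjusted p = 0.00769) and mir-79-3p -0.31 (SE 0.115, adjusted p = 0.0309). mir-9b-5p had -0.25 (SE 0.108) and did not pass (adjusted p = 0.0512). The share of 3 of 4 tested cluster arms called was near the background. mir-79-3p did not pass without the 6, 12 or 24 h libraries (adjusted p of 0.0829, 0.0822 and 0.0753), with U positions to nucleotide 18 only (0.0536) or without the block (0.315). mir-9b-5p passed without the 0.25 or the 1 h libraries (0.0433 and 0.045) and over 3 to 24 h (0.0246). Without the block mir-9c-5p did not pass (0.121). With values left as measured, so that the oxidised 0 h library was not used, the same 3 arms passed, with mir-306-3p at -1.04 and mir-9c-5p at -0.79.

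In the pairwise tests of oxidised courses 2 of 10 pairs passed, and 6 of 10 when the 0 h library was not subtracted. mir-9c-5p exceeded mir-306-3p by 0.16 points (SD 0.205) and mir-9b-5p exceeded mir-306-3p by 0.34 points (SD 0.336), each at 7 of 7 times (n = 7, exact permutation p = 0.0156, adjusted p = 0.0297). Before oxidation the mean difference of mir-9c-5p from mir-306-3p was -0.06 points, with mir-9c-5p higher at 3 of 7 times.

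Labelling was uneven along an arm. At 24 h, unoxidised, the U at nucleotide 1 of mir-79-3p was at 3.23%, while its other U positions to nucleotide 18 went down to 0.785% (nucleotide 11). In mir-306-5p nucleotide 6 was at 2.85% and nucleotide 13 at 0.952%, and in mir-9c-5p nucleotide 3 was at 3.92% and nucleotide 8 at 2.24%. Up to nucleotide 18, mir-9b-5p had the narrowest range of the guides, from 1.97% at nucleotide 8 to 2.83% at nucleotide 4. Further along the annotated arms, its nucleotides 20 and 22 were at 1.48% and 1.24%, and nucleotide 19 of mir-9c-5p was at 1.56%. The number of U in the annotated arms was 12 in mir-9b-5p, 10 in mir-9c-5p, 7 in mir-306-5p and 5 in mir-79-3p.

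Read lengths changed most in mir-9b-5p. Its mean read length was 22.0 to 22.5 nt (median 22.4) before oxidation and 20.1 to 20.6 nt (median 20.3) after, without overlap. Reads of 22 and 23 nt made up 46.3 ± 3.03% and 33.8 ± 4.51% before and 3.98 ± 2.52% and 9.62 ± 2.87% after (SD, n = 8). In their place, reads of 21 nt went from 6.8 ± 2.67% to 45 ± 6.71%, and reads of 18 nt came to 29 ± 5.69%.

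mir-9c-5p, with the same seed, was at 21.6 to 21.8 nt (median 21.8) before and 21.5 to 21.7 nt (median 21.6) after, with ranges that overlapped. Reads of 22 nt gave 62.9 ± 4.37% before and 60.7 ± 6.3% after (SD, n = 8). mir-79-3p was at 21.7 to 21.9 nt (median 21.9) before and 21.5 to 21.7 nt (median 21.6) after, without overlap, and 22 nt reads gave 87.5 ± 4.88% and 78.1 ± 2.56%. mir-306-3p was at 21.3 to 21.5 nt (median 21.4) before and 21.2 to 21.4 nt (median 21.3) after, with overlap, and its 21 nt reads went from 43 ± 3.16% to 62.5 ± 7.3%.

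The arms that were nearly lost were also read shorter. mir-306-5p was at 21.2 to 21.3 nt (median 21.3) before and 19.7 to 20.6 nt (median 19.9) after, and its 19 nt reads went from 3.73 ± 1.13% to 29.7 ± 6.55% (SD, n = 8). mir-9c-3p went from a mean of 20.9 nt to 18.97 nt, and 18 and 19 nt reads made up 41.5 ± 8.96% and 33.3 ± 8.23% of what remained. In both arms the groups did not overlap. The remaining reads were few, and their origin was not tested.

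**Figure D5:**
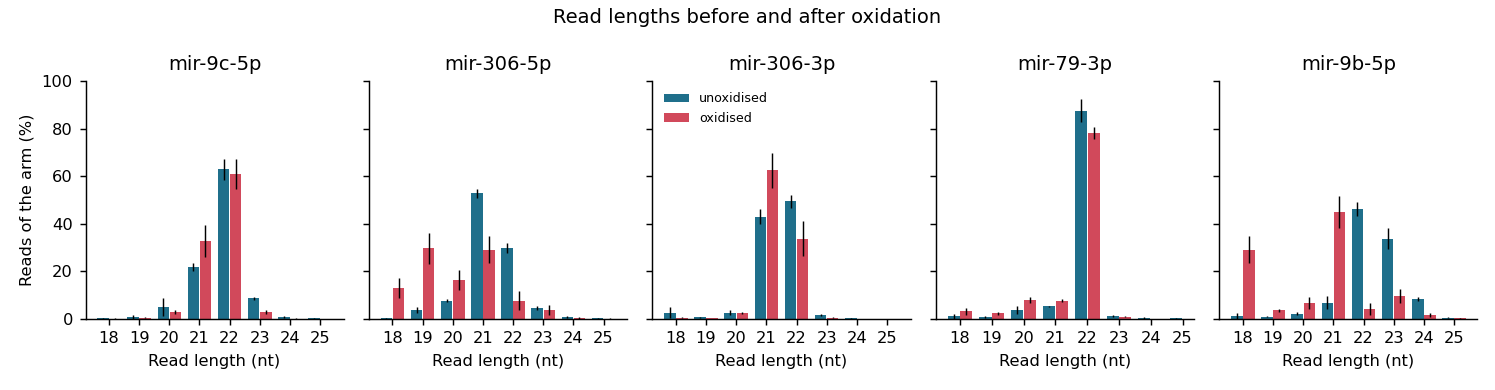
Share of reads at each length (18 to 25 nt) for 5 arms, as the mean of 8 libraries with SD, unoxidised in blue and oxidised in red. mir-9b-5p moves from 22 and 23 nt to 21 and 18 nt and mir-306-5p gains 18 to 20 nt reads, while mir-9c-5p and mir-79-3p stay mainly at 22 nt.

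limma on paired differences in mean length called 50% of 72 arms of at least 10 RPM in both groups shorter and 22.2% longer after oxidation (72.2% either way, median -0.12 nt). mir-9b-5p changed by -2.03 nt (SE 0.1, adjusted p = 5.8e-07), the 5th lowest of the 72. mir-79-3p changed by -0.26 nt (SE 0.044, adjusted p = 0.000585) and mir-9c-5p by -0.13 nt (SE 0.0358, adjusted p = 0.0105). mir-306-3p had -0.12 nt (SE 0.0484) and did not pass (adjusted p = 0.0558), while it passed with lengths of 20 to 25 nt (-0.20 nt, adjusted p = 0.000154), without the block (0.0175) or without the 1 or 6 h libraries (0.0245 and 0.0256). Between 20 and 25 nt mir-9b-5p changed by -1.08 nt, since the 18 nt reads are then not counted. With no minimum level, over 186 arms of which 30.1% were called shorter (45.2% either way), mir-9c-3p had -1.90, mir-79-5p -1.57, mir-306-5p -1.25 and mir-9b-3p -0.69 nt, and all 4 passed.

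Labelled reads were longer on average than all reads of the same arm in 7 of 8 cluster arms after 0.5 h and in 8 of 8 after 24 h, unoxidised. Arms outside the cluster were not counted, so these numbers do not show a trait particular to the cluster. In mir-306-5p, mir-306-3p, mir-9b-5p, mir-9b-3p, mir-9c-5p and mir-9c-3p they were longer at 7 of 7 labelled times, in mir-79-3p at 5 and in mir-79-5p at 4. After 0.5 h, unoxidised, the 395 T>C reads of mir-306-5p had a mean length of 21.9 nt against 21.3 nt for all its reads, and at 24 h 21.6 against 21.3 nt. For mir-9b-5p the values were 22.8 against 22.3 nt at 0.5 h, from 594 T>C reads, and 22.7 against 22.4 nt at 24 h. The passengers differed at 0.5 h, since mir-306-3p had 21.6 nt for 250 T>C reads against 21.4 nt for all reads, while mir-79-5p had 22.4 nt for 197 T>C reads against 22.5 nt. T>C past the annotated end, 205 of 763 in mir-306-5p and 22 in mir-9b-5p at 0.5 h, is found only in longer reads. Most of it was not counted among the T>C reads of mir-306-5p. At 0.5 h, unoxidised, 176 T>C were at its nucleotide 23. Of its T>C reads 47 were 23 nt long, 5 were 24 nt and 0 were longer. The differences in length are from single libraries and were not tested.

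The levels of the arms did not show a trend over labelling time that passed the test. edgeR's quasi-likelihood test of a slope on log2(1 + h) called 7.2% of 125 unoxidised arms (3.2% higher and 4% lower, 32 at an unadjusted p under 0.05) and 0% of 92 oxidised arms (11 unadjusted), and 0 of 8 and 0 of 5 cluster arms. DESeq2 called 1 oxidised arm, which was not in the cluster. The difference of the slopes between groups was called for 0% of 79 arms (0 unadjusted), the cluster's 5 included.

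Outside the cluster, 3 of the 4 arms of mir-9a and mir-4, listed as relatives of the miR-9 seed family, were present, at 0.241 to 2.53 RPM in the unoxidised mean. Among the guides of 6 other intronic hairpins, which span 430 to 12789 RPM before oxidation, the oxidised level was also uneven. mir-33-5p was at 8184 ± 2573 RPM after oxidation against 10116 ± 941 before (SD, n = 8), and mir-308-3p at 15.2 ± 9.09 against 3191 ± 764. Of the 6, they had the highest and the lowest oxidised level relative to the unoxidised one. mir-275-3p, with the seed of mir-306-5p, was at 161 RPM against 8608 RPM.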

How the data were processed

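Small RNA of S2 cells was measured in 17 libraries. Per the submitters' processing notes, cutadapt 1.7.1, Bowtie 1.2.2 and Picard were used with dm6, and per the labels both adapters carried random nucleotides. How copies of a molecule were treated is not stated there. The authors deposited a signal in RPM (scaled to small RNA reads) per arm and per read length, and a count of reads per nucleotide and position in the mismatch tables. Deposited RPM times the library total gave whole reads in 100% of values (tolerance 0.001).

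Arms were keyed by hairpin and start, and arms identical over their first 20 nt were counted once. T>C percentages sum all U positions in the mismatch tables, those past the annotated 3′ end included. Counts were tested with edgeR 4.0.16 (quasi-likelihood) or DESeq2 1.42.0 (alternative), differences with limma 3.58.1 (R 4.3.3), and arms in pairs with exact permutation (scipy 1.17.1), all with Benjamini-Hochberg adjustment and a threshold of 0.05. Strand ratios had 0.5 reads added. Hairpins were folded with RNAfold 2.7.2. Fits were tested on simulated data. The fit needed at least 1000 reads over U positions per library for T>C.

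Libraries of a time were paired because, per the labels' protocols, treated RNA was split. Deviations of same-time libraries correlated at -0.273 to 0.494 over 79 arms, above 0.1 at 5 of 8 times. At 4 of 8 times the unoxidised library correlated best with the oxidised library of its own time. Members and gene lists were chosen with earlier results of these data known. The named arms were all 8 cluster arms and, for each, the 2 arms outside the cluster with the nearest unoxidised T>C course. Positions are from the BDGP6 annotation.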

Additional observations from a re-analysis of the deposited data

Results flagged for a closer look

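Among 40 sets of 8 values (level and mean read length of each arm and strand ratio of each hairpin, per group) 1 had a library far from the rest, and chance marks about 1 in 20. It was the level of mir-79-3p in the oxidised 0 h library, at 37 RPM, while the next lowest oxidised library was at 115.4 RPM. In this library the other arms listed at their lowest oxidised level were mir-79-5p, mir-9b-5p, mir-9b-3p and mir-9c-3p, and the library correlated least with the rest of its group (median 0.845). Its part in these values was not tested.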

How the results depend on the processing

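Scaling to all small RNA reads reversed mir-9c-5p (-0.64, from mismatch counts and from recovered reads alike) and gave 8 arms higher and 54 lower in place of 35 and 34. Recovered reads gave 70 higher and 80 lower with 8 cluster arms past, and on the small RNA scale 31 higher and 104 lower with 8. For the slope over time, unoxidised, 4 arms were higher and 5 lower; the small RNA scale gave 1 higher, RLE 1 lower and DESeq2 9 lower, and DESeq2 gave 1 oxidised arm higher, with 0 cluster arms past in all. With 1 time left out these were 0 to 4 higher and 0 to 16 lower. The fit of T>C with no replicate block, which takes the rise over time as spread, called 18 arms lower in place of 50, with 1 cluster arm (mir-306-3p) in place of 3; mir-9c-5p (adjusted p = 0.121) and mir-79-3p (0.315) were lost. With 1 time left out it called 36 to 53 arms and 2 to 4 of the cluster. Without the block no call of abundance or strand ratio in the cluster was lost. With no minimum level, 28 arms were longer and 56 shorter, 7 of the cluster, and 14 hairpins moved towards 3p in place of 9. Leaving out 1 time called 3 to 4 cluster arms in length. T>C pairs gave 0 past in either group with 1 time left out. The smallest possible p over 6 times is 0.03125, and the smallest adjusted p found was 0.0516. Oxidised pairs past were 6 when 0 h was not subtracted. With U positions within the annotated arm, chosen after seeing the data, 19 unoxidised and 2 oxidised pairs passed. Depth limits oxidised mir-306-5p and the 3 scarce passengers, with as few as 5 reads per library.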
